A study of Zea mays with 10 samples.

Results

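Small RNA was compared between leaf and root in 4 maize (Zea mays) lines, to find the genomic windows where the tissue difference of a single line stood apart from that of the other 3. The members were the 8 libraries of B73, id1, id4 and 9d9a in leaf and in root, of 10 libraries in all. The other 2 libraries, 714 and 714H, were sequenced from leaf alone and entered no test. Of 20584 windows of 100 kb with reads in any library, 18804 held a mean of at least 20 reads over the 8 libraries and were described. For each window the leaf minus root difference of log2 CPM (reads of the window scaled to a common library size) was taken in each line. The mean of the same difference in the other 3 lines was then subtracted. The result, called the line-by-tissue term, is positive where leaf exceeded root by more in that line than in the others.

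Plants were seedlings 14 days old, grown in a chamber under a cycle of 15 h light and 9 h dark. B73 is an inbred line of maize and the source of its reference genome sequence. The labels give the genotype P1-wwid1 for id1, P1-wwid4 for id4 and P1-vv9d9a for 9d9a, with P1-ww714 for 714 and P1-ww714/B73 for 714H. These names refer to alleles of p1 (pericarp color1), which encodes a Myb transcription factor that switches on red phlobaphene pigments in the pericarp and cob. The series concerns altered gene copy number, but the labels used here give neither the copy number of each allele nor the background that the alleles were carried in. There was 1 library for each line and tissue, and no label names separate plants. A p-value here therefore reflects how these libraries scatter, which may be technical. The label for the leaf libraries' tissue reads seedling, and leaf was taken from their titles. Windows carry no gene names, so the tissue could not be checked against marker genes.

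Plant small RNAs fall into a few classes. MicroRNAs are cut from hairpin precursors and guide the cleavage or silencing of matching messenger RNAs. Small interfering RNAs are cut from double-stranded RNA, and a large class of them directs DNA methylation to transposons and other repeats. A window total joins all of these classes, since the files give neither the length nor the sequence of the reads. Fewer cells that make a small RNA and less small RNA per cell cannot be told apart in whole tissue. Positions are those of the deposited windows. No source used here names their genome build, so no window was placed in a gene, exon or repeat and no sequence was read from a genome.

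Library totals ranged from 8472011 reads in 9d9a leaf to 18396214 in B73 leaf, and the root libraries held 10921854 to 12160298. The median window held 229.5 to 506 reads. By their median difference, the root libraries fell into 2 pairs. Over 12848 windows with at least 200 reads, the median absolute log2 difference was 0.122 between the roots of B73 and id1 and 0.134 between those of id4 and 9d9a. Across these pairs it was 0.159 to 0.18. Leaf libraries showed no such pairing, with medians of 0.0984 to 0.12 for the 6 pairs of lines. The share of windows more than 2-fold apart in root did not follow the pairs. It was 2.82% for B73 with id1 and 2.67% for id4 with 9d9a. Across the pairs it was 2.23% and 2.31% for B73 with id4 and 9d9a, and 3.32% and 3.84% for id1 with them. The labels give no harvest or sequencing batch, so a batch and the lines cannot be told apart in root. Leaving a line out of a fit changed the calls a great deal, as given with the results below.

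**Figure D1:**
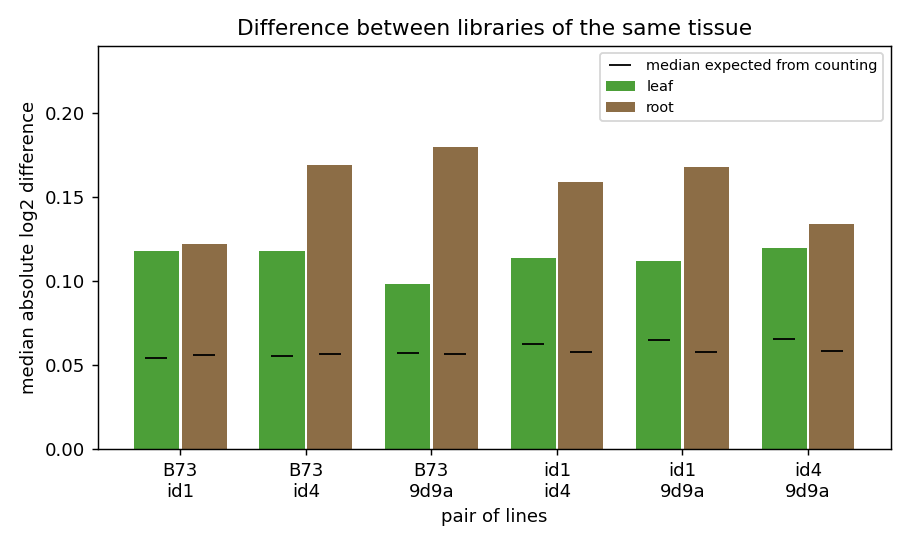
Median absolute log2 difference between libraries of the same tissue for each pair of lines, over 12848 windows with at least 200 reads, with green bars for leaf and brown bars for root. Black ticks mark the median difference that counting error alone would give. Leaf bars lie between 0.0984 and 0.12, and the root bars of B73 with id1 (0.122) and of id4 with 9d9a (0.134) are lower than the other 4 root bars.

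Leaf to root differences were small in most windows, and so were their differences between lines. The median absolute tissue difference, averaged over lines, was 0.208 on the log2 scale. Its median SD over the 4 lines was 0.173, against 0.111 from counting error alone. The tissue difference had the same sign in all 4 lines in 10021 of 18804 windows. Averaged over the lines, 328 windows differed at least 2-fold between tissues. The median absolute line-by-tissue term was 0.159 in B73, 0.14 in id1, 0.154 in id4 and 0.165 in 9d9a. The median counting error (SE) of the term was 0.117, 0.129, 0.131 and 0.135 in the same order. Terms of more than 1 log2 unit were found in 133 windows in B73, 176 in id1, 174 in id4 and 191 in 9d9a.

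How far these terms exceeded counting error depended on depth. In 1712 windows with 20 to 50 reads, the spread of the term was 0.998 to 1.15 times what counting error gives. In 3241 windows with at least 1000 reads this ratio was 3.03 in B73, 2.17 in id1, 2.45 in id4 and 2.66 in 9d9a. The spread itself was smaller in those deep windows, at 0.143 to 0.181 log2 units, against 0.484 to 0.5 in the shallow ones. A difference in a shallow window was therefore hard to tell from counting error, while deep windows showed small differences between lines beyond it. The 4 terms of a window are not independent, because they sum to 0 and a line that stands far out moves the terms of the other 3 the other way.

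**Figure D2:**
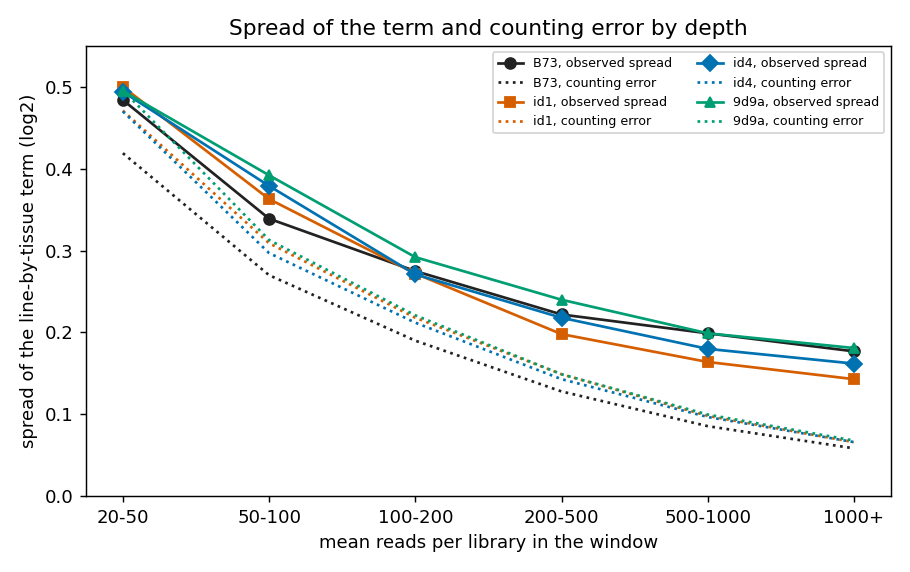
Spread of the line-by-tissue term (log2, robust SD over windows, solid lines) and its counting error (root mean square SE, dotted lines) in each line, for windows grouped by mean reads per library. The solid and dotted lines nearly meet at 20 to 50 reads and are farthest apart, relative to their height, at 1000 reads or more.

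The term was tested in each line with edgeR's quasi-likelihood test over 20215 windows, with Benjamini-Hochberg adjustment and a threshold of 0.05. The 8 libraries left 2 residual degrees of freedom, which come from the spread of the tissue difference among the other 3 lines. A large term could therefore go uncalled where those 3 lines differed among themselves. The test also shrank this spread toward that of other windows, in a form robust to outlying windows (robust shrinkage). The prior had a median of 12 to 14.4 degrees of freedom by line. In most windows the p-values and SEs thus rest more on spread shared between windows than on the window's own. In B73 8 windows (0.0396%) had a higher term than the other lines and 1 window (0.00495%) a lower one. In id1 no window was higher and 2 (0.00989%) were lower, while 278 windows were higher and 218 lower at an unadjusted p under 0.05. DESeq2 called 0 higher and 3 lower in id1, and limma-voom called none in either direction. In id4 1 window (0.00495%) was higher and none was lower, against 419 higher and 462 lower at an unadjusted p under 0.05. DESeq2 and limma-voom each called 1 lower window in id4. In 9d9a 1 window was higher and 1 lower (0.00495% each). Over both directions the calls made up 0.0445% of windows in B73, 0.00989% in id1 and in 9d9a and 0.00495% in id4. At an unadjusted p under 0.05 the share was 5.97% in B73, 2.45% in id1, 4.36% in id4 and 5.82% in 9d9a. A share of 0.05 would pass by chance, so the unadjusted counts in id1 and id4 are no sign of further differences. The 14 calls fell in 14 different windows, which calls at shares this small would be likely to do in any case.

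**Figure D3:**
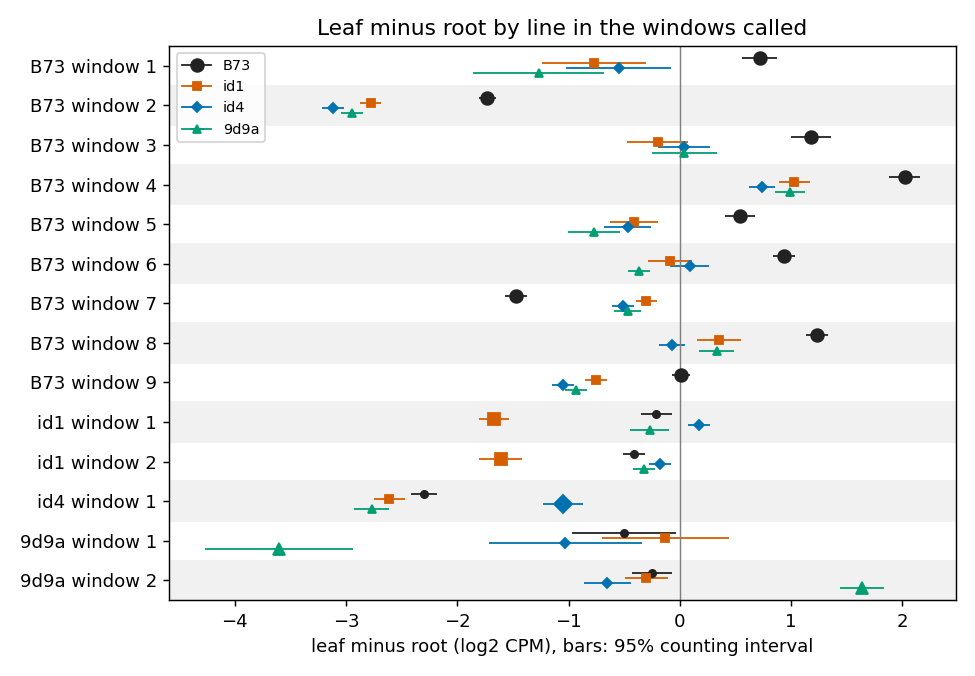
Leaf minus root (log2 CPM) of B73 (black circles), id1 (orange squares), id4 (blue diamonds) and 9d9a (green triangles) in the 14 windows called, with 95% counting intervals as bars and a larger marker for the line that was called. Windows are numbered in the order of the size of the term within each line, and in each one the called line lies to one side of the other 3.

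In 9d9a a window on chromosome 7 at 19.6 to 19.7 Mb had the reverse tissue preference of the other lines. Its level in leaf was 30.7 CPM in B73, 32.9 in id1, 27.1 in id4 and 86.1 in 9d9a. The root level was 36.5 CPM in B73, 40.5 in id1, 42.6 in id4 and 27.5 in 9d9a. The 9d9a leaf library was thus the highest of the 8, and its root library lay below the other roots. The leaf libraries of 714 and 714H, which played no part in the choice of the window, held 30.6 and 31.2 CPM, next to the other 3 leaf values. Leaf was 3.12-fold above root in 9d9a, while root was 1.19-fold above leaf in B73, 1.23-fold in id1 and 1.57-fold in id4. The line-by-tissue term was 2.04 ± 0.20 (log2 ± SE; edgeR, adjusted p = 0.00135). The window was called under all 12 other settings tried, with a log2 term of 1.91 to 2.11 and an adjusted p of at most 0.0184.

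The other 9d9a window, on chromosome 5 at 141.7 to 141.8 Mb, was low in 7 libraries and high in 9d9a root. Leaf levels were 3.94 CPM in B73, 4.48 in id1, 2.49 in id4 and 2.24 in 9d9a. Root levels were 5.57, 4.92 and 5.13 CPM in B73, id1 and id4, and 27.7 CPM in 9d9a. Behind these 9d9a values were 19 leaf reads and 298 root reads. The difference between the lines thus lay in root, where 9d9a stood clear of the other 3. Root exceeded leaf 12.1-fold in 9d9a, against 1.10-fold to 2.04-fold elsewhere, and the term was -3.11 ± 0.39 (edgeR, adjusted p = 0.0169). Without id1 the call was lost, at a term of -2.93. It was also lost with limma-voom (term -3.08, adjusted p = 0.247) and without robust shrinkage (edgeR, adjusted p = 0.0891).

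In id1 both calls had a lower leaf to root difference than in the other lines. On chromosome 9 at 44.1 to 44.2 Mb, id1 had the leaf level of one set of lines and the root level of another. Leaf held 51.4 CPM in B73, 59.8 in id1, 198 in id4 and 56.1 in 9d9a, and 39.6 and 44.3 CPM in 714 and 714H. Root held 59.2 CPM in B73, 190 in id1, 177 in id4 and 67.5 in 9d9a. The window was high in both tissues of id4, low in both tissues of B73 and 9d9a, and high in id1 in root only. Root exceeded leaf 3.18-fold in id1, and the term was -1.58 ± 0.19 (edgeR, adjusted p = 0.0104). The call was lost without 9d9a, at a term of -1.66. It was also lost with limma-voom (adjusted p = 0.0909) and without robust shrinkage (edgeR, adjusted p = 0.0648).

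The second id1 window, on chromosome 2 at 224.1 to 224.2 Mb, was low in both id1 libraries and lower in leaf. Leaf held 114 CPM in B73, 27.1 in id1, 129 in id4 and 134 in 9d9a, beside 126 in 714 and 136 in 714H. Root held 152 CPM in B73, 82.5 in id1, 145 in id4 and 168 in 9d9a. The id1 leaf library was below the 5 other leaf libraries, and id1 root was below the 3 other roots by a smaller step. The term was -1.30 ± 0.18 (edgeR, adjusted p = 0.0211). Without 9d9a the call was lost, at a term of -1.31. The same held with limma-voom (adjusted p = 0.207) and without robust shrinkage (edgeR, adjusted p = 0.0998).

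In id4 the 1 window called was a root-rich window in which the root excess was smaller than elsewhere. On chromosome 3 at 7.7 to 7.8 Mb, leaf held 35.5 CPM in B73, 46.3 in id1, 38.6 in id4 and 46.9 in 9d9a. Root held 175 CPM in B73, 282 in id1, 80.0 in id4 and 319 in 9d9a. Leaf levels were close in the 4 lines, and the id4 root library was the lowest of the roots. Root exceeded leaf 2.07-fold in id4, 4.93-fold in B73, 6.09-fold in id1 and 6.80-fold in 9d9a. The term was 1.5 ± 0.19 (edgeR, adjusted p = 0.0122). Without id1 the call was lost, at a term of 1.48, as it was with limma-voom (adjusted p = 0.0924). In edgeR it was also lost without robust shrinkage (adjusted p = 0.124) and with at least 100 reads (adjusted p = 0.0512).

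**Figure D4:**
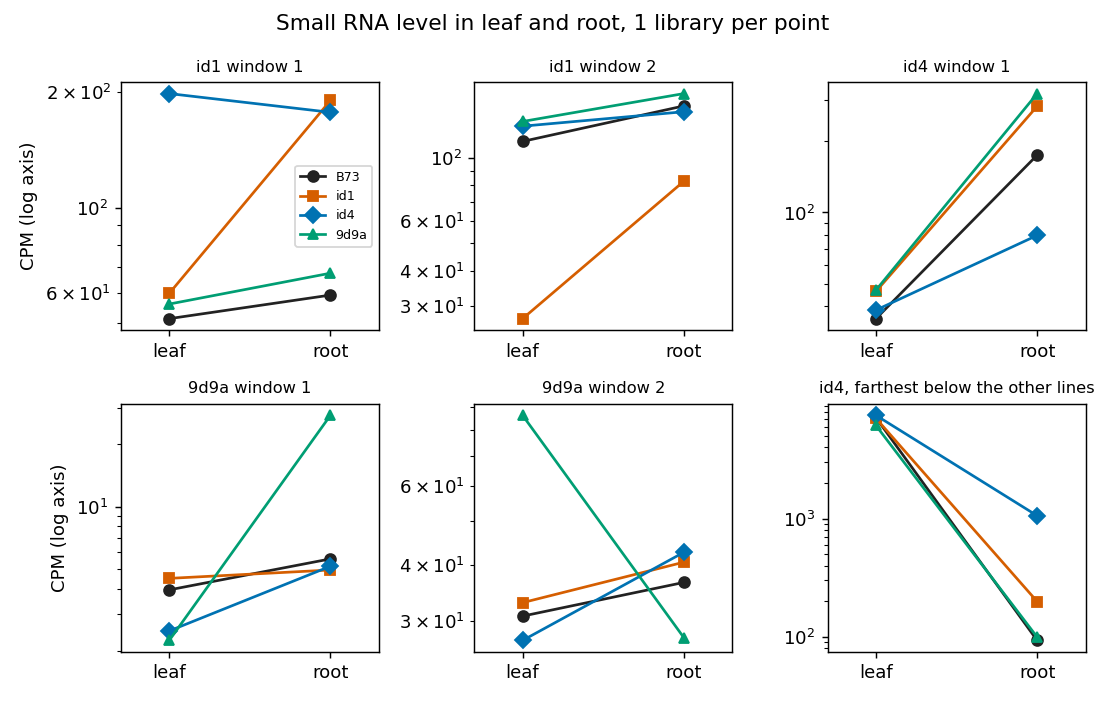
Small RNA level (CPM, log axis) in leaf and root of each line, 1 library per point, for the id1, id4 and 9d9a windows called and for the id4 window on chromosome 5 at 183.5 Mb, which edgeR did not call. In the second 9d9a panel the 9d9a line runs from 86.1 CPM in leaf down to 27.5 in root while the other 3 rise.

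Of the 9 calls in B73, 8 had a higher leaf to root difference than the other lines. The one with the largest term lay on chromosome 1 at 51.7 to 51.8 Mb, where B73 was high in both tissues. Leaf held 68.7 CPM in B73, 5.57 in id1, 6.12 in id4 and 3.65 in 9d9a, and root held 41.5, 9.58, 8.98 and 8.93 CPM in the same order. B73 thus exceeded the other lines in both tissues and by more in leaf. Among the remaining leaf libraries, 714 held 14.8 CPM and 714H, labelled as 714 with B73, held 33.1. The term was 1.56 ± 0.24 (edgeR, adjusted p = 0.0337).

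On chromosome 1 at 214.5 to 214.6 Mb the difference lay in root. Leaf levels were 103 CPM in B73, 83.6 in id1, 110 in id4 and 120 in 9d9a, while root levels were 342, 575, 962 and 923 CPM. B73 root was the lowest of the 4 roots, so that root exceeded leaf by 1.73 log2 units in B73 and by 2.78 to 3.12 in the other lines. The term was 1.22 ± 0.18 (edgeR, adjusted p = 0.0337). On chromosome 6 at 20.4 to 20.5 Mb the difference lay in leaf. B73 leaf held 56.8 CPM, against 17.6 to 30.9 in the other lines and 18.9 and 20.7 in 714 and 714H. Root levels there were 25.1 CPM in B73, 20.3 in id1, 30.2 in id4 and 19.7 in 9d9a, and the term was 1.22 ± 0.19 (edgeR, adjusted p = 0.0441).

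The other 6 B73 windows had terms of 0.93 to 1.11 in size. The single lower one, on chromosome 4 at 153.7 to 153.8 Mb, held 71.8 CPM in B73 leaf, against 157 in id1, 120 in id4 and 126 in 9d9a. Its root levels were 200, 193, 170 and 175 CPM, close in the 4 lines, and the term was -1.05 ± 0.15 (edgeR, adjusted p = 0.0337). The 714 and 714H leaf libraries were lower still in that window, at 36.2 and 20.5 CPM. On chromosome 4 at 136.0 to 136.1 Mb, leaf held 149 CPM in B73 and 112 to 133 in the other 3 lines, and root held 36.7 CPM in B73 and 55.1 to 79.6. B73 was the highest leaf and the lowest root, and the term was 1.11 ± 0.17 (edgeR, adjusted p = 0.0337). Leaf levels of 714 and 714H were 33.5 and 53.5 CPM there, below the leaf levels of the 4 lines.

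In 3 further B73 windows the leaf level of B73 was the highest of the 4 lines. These were on chromosome 4 at 185.0 Mb (72.8 CPM, other lines 25.4 to 28.9), on chromosome 1 at 29.7 Mb (216 CPM, other lines 42.7 to 106) and on chromosome 6 at 89.8 Mb (212 CPM, other lines 112 to 165). In the same order, 714 leaf held 29.5, 57.0 and 125 CPM and 714H leaf 28.0, 163 and 124 CPM. At 29.7 Mb 714H thus lay above id1, id4 and 9d9a. The terms of these windows were 1.09 ± 0.18, 1.04 ± 0.17 and 0.93 ± 0.15, each with an adjusted p of 0.0472 by edgeR. In the last of them B73 root, at 210 CPM, was the lowest root. On chromosome 1 at 65.6 Mb, leaf held 161 CPM in B73 and 155 in 9d9a but 36.5 in id1 and 50.1 in id4. Leaf of 714 and 714H held 39.8 and 90.6 CPM. Root levels there were 83.7 CPM in B73, 39.0 in id1, 47.0 in id4 and 201 in 9d9a. B73 and 9d9a were thus both high, with opposite tissue preference, and the term was 1.08 ± 0.17 (edgeR, adjusted p = 0.0441).

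The B73 calls were close to the threshold and depended on the setting. All 9 were lost without 9d9a, when library totals replaced TMM scaling, and with limma-voom. They were also lost without robust shrinkage and with at least 100 reads. DESeq2 called the windows at 214.5 Mb of chromosome 1 (adjusted p = 0.000567) and at 153.7 Mb of chromosome 4 (adjusted p = 0.0274) among the 9. B73 leaf was also the deepest library. When it was thinned to 9306119 reads, 3 of the 9 calls were kept, those at 214.5 Mb of chromosome 1 and at 136.0 and 153.7 Mb of chromosome 4.

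Windows where a line stood apart were also described without a test. A line was taken as apart where its tissue difference lay at least 1 log2 unit, or 2-fold, beyond that of each of the other 3 lines, and where the 95% counting interval of the gap to the nearest line was clear of 0. This was so in 93 of 18804 windows (0.495%). B73 was apart in 13 windows (0.0691%), id1 in 23 (0.122%), id4 in 25 (0.133%) and 9d9a in 32 (0.17%). Higher and lower windows numbered 7 (0.0372%) and 6 (0.0319%) in B73, and 14 (0.0745%) and 9 (0.0479%) in id1. They numbered 8 (0.0425%) and 17 (0.0904%) in id4, and 20 (0.106%) and 12 (0.0638%) in 9d9a. With library totals in place of TMM scaling, the split was 9 and 10 in id1 and 28 and 7 in 9d9a. Of the 93 windows 53 held fewer than 50 reads per library on average and 24 held at least 100. No 2 neighbouring windows were apart in the same line.

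In 61 of the 93 windows (65.6%) the root library of the line deviated more from the other lines than its leaf library did. Root also led in most windows in general. For B73 root led in 7 of 13 windows apart (53.8%) and in 60.8% of all 18804, and for id1 in 13 of 23 (56.5%) and in 56.3%. For id4 it led in 19 of 25 (76.0%) and in 56.1%, and for 9d9a in 22 of 32 (68.8%) and in 60.2%. These shares were not tested against each other. Windows apart were spread over 7 chromosomes in B73, 9 in id1, 9 in id4 and 10 in 9d9a. The highest count on a chromosome was 3 in B73 and 6 in id1, both on chromosome 1. It was 5 in id4 on chromosome 7 and 7 in 9d9a on chromosome 4. These counts were not set against the number of windows on each chromosome.

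Of the 14 calls, 8 were also apart by this description: 3 in B73, both in id1, the 1 in id4 and both in 9d9a. The 6 other B73 calls fell short with gaps of 0.77 to 0.99 log2 units to the nearest line. The largest gap in id4 and the most abundant window apart were the same one, on chromosome 5 at 183.5 to 183.6 Mb. Leaf levels were 7138 CPM in B73, 7053 in id1, 7479 in id4 and 6138 in 9d9a, and 2968 and 4257 CPM in 714 and 714H. Root levels were 93.3 CPM in B73, 199 in id1, 1059 in id4 and 99.5 in 9d9a. The window was far more abundant in leaf in every line, and the id4 root library was the highest of the roots. Leaf exceeded root 76.5-fold in B73, 35.4-fold in id1, 61.6-fold in 9d9a and 7.06-fold in id4. The term was -2.96 with a counting SE of 0.03, and -2.96 ± 0.53 in edgeR, with an adjusted p of 0.243. DESeq2 (adjusted p = 0.0499) and limma-voom (adjusted p = 0.0122) called it, as did edgeR without 9d9a. The other 9 of 12 settings did not, among them edgeR without B73, without id1 and with at least 100 reads. Its term was -2.87 without 9d9a, -2.71 without B73 and -3.28 without id1. Fits without 1 line have 1 residual degree of freedom, and calls kept, gained or lost in them are given without p-values.

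In B73 the largest gap lay on chromosome 8 at 130.2 to 130.3 Mb. Leaf levels were 361 CPM in B73, 260 in id1, 335 in id4 and 294 in 9d9a, and root levels were 61.9, 176, 500 and 242 CPM. The leaf levels were close, B73 root was the lowest root and id4 root the highest. Leaf exceeded root 5.84-fold in B73, 1.48-fold in id1 and 1.21-fold in 9d9a, and root exceeded leaf 1.49-fold in id4. The term of 2.46 ± 0.60 was not called (edgeR, adjusted p = 0.826). Among 12 other settings only the fit without id4 called it, at a term of 2.14. That call thus depended on leaving out id4, the line with the opposite tissue difference.

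Some id1 windows apart held few reads in id1. On chromosome 1 at 60.9 to 61.0 Mb, leaf held 47.1 CPM in B73, 2.59 in id1, 52.1 in id4 and 56.1 in 9d9a, and root held 43.0, 0.527, 38.2 and 48.3 CPM. The id1 values rest on 26 and 6 reads, and 714 leaf was as low, at 2.35 CPM, with 27.7 CPM in 714H. The term was 2.01 ± 0.55 (edgeR, adjusted p = 1.0). On chromosome 2 at 234.1 to 234.2 Mb, id1 held 5.38 CPM in leaf and 1.49 in root, against 22.0 to 25.1 and 21.7 to 26.5 CPM in the other lines. There the term was 1.85 ± 0.41 and was not called. Among 12 other settings only the fit without B73 called it, at a term of 1.69.

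On chromosome 1 at 82.5 to 82.6 Mb the low level of id1 lay in leaf. Leaf held 36.4 CPM in B73, 5.87 in id1, 24.4 in id4 and 57.5 in 9d9a, and 65.9 and 44.8 CPM in 714 and 714H. Root held 79.7 CPM in B73, 47.5 in id1, 33.5 in id4 and 44.9 in 9d9a. The id1 leaf library was the lowest of the 8, and its root library lay within the range of the other roots. Root exceeded leaf 8.03-fold in id1, but the other lines differed among themselves, from 2.19-fold higher in root in B73 to 1.28-fold higher in leaf in 9d9a. The term was -2.58 ± 0.87 and was not called (edgeR, adjusted p = 1.0). Among 12 other settings only the fit without B73 called it, at a term of -3.01.

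Low levels in both tissues of a line were more common in some lines than in others. Windows at least 2-fold below the mean of the other lines in both leaf and root numbered 27 in B73 (0.144%), 306 in id1 (1.63%), 106 in id4 (0.564%) and 208 in 9d9a (1.11%). Among them, 6 in id1 (1.96%) and 3 in 9d9a (1.44%) were also apart for the tissue difference, against 0.122% and 0.17% of all windows in these lines, and none was in B73 or id4. The SD of the term in such windows was 0.387 in B73, 0.542 in id1, 0.391 in id4 and 0.519 in 9d9a. Over all 18804 windows it was 0.288, 0.28, 0.292 and 0.307. A line that is low in a window has fewer reads there and so a larger counting error. The counting error was not computed for these windows, and its part in the wider SD and the higher shares apart was not tested. Windows at least 2-fold above the other lines in both tissues also had wider terms, with SDs of 0.365, 0.523, 0.348 and 0.405 in the same order. Of these, 1 in B73 (0.446%), 1 in id1 (1.49%), none in id4 and 1 in 9d9a (0.637%) were apart.

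Of the other windows named in 9d9a, that on chromosome 7 at 91.1 to 91.2 Mb was like the one called on chromosome 5. Leaf held 1.73 CPM in B73, 1.59 in id1, 1.87 in id4 and 4.59 in 9d9a, and root held 1.72, 1.67, 1.01 and 14.9 CPM. Both 9d9a libraries were above those of the other lines, and by more in root. The term was -1.91 ± 0.42 (edgeR, adjusted p = 0.476). Among 11 other settings only the fit without id4 called it, at a term of -1.68. In B73 the window on chromosome 1 at 44.6 to 44.7 Mb held 17.4 CPM in root, against 2.33 to 6.51 in the other roots, and 7.13 CPM in leaf, against 4.36 to 7.26. Its term of -1.71 ± 0.30 was just outside the threshold (edgeR, adjusted p = 0.0706). It was called under 2 of 11 other settings, without id1 (-1.69) and without id4 (-1.9), and not under the other 9. These 2 windows were among 19 named windows that held under 20 CPM in all 8 libraries and were not called. Of the 19, 4 were in B73, 3 in id1, 6 in id4 and 6 in 9d9a. Their levels ran from 0.465 to 17.4 CPM and their terms from 1.4 to 2.25 log2 units in size, with adjusted p of 0.0706 to 1.0 by edgeR.

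A window on chromosome 1 at 48100 to 48200 kb differed strongly between lines in both tissues. It was named because p1 was taken to lie near 48 Mb of chromosome 1, a position assumed from general knowledge and not checked against the build of the files. Leaf held 24.3 CPM in B73, 1274 in id1, 959 in id4 and 33.9 in 9d9a, and 1384 and 588 CPM in 714 and 714H. Root held 20.3 CPM in B73, 496 in id1, 480 in id4 and 25.6 in 9d9a. The lines with a P1-ww allele were thus high in leaf, and id1 and id4 were high in root. Leaf exceeded root by 0.26 log2 units in B73, 1.36 in id1, 1.0 in id4 and 0.41 in 9d9a. The line-by-tissue terms in edgeR were -0.72 ± 0.33, 0.76 ± 0.26, 0.25 ± 0.48 and -0.52 ± 0.44 in that order. None was called, with adjusted p of 0.829 to 1.0. By counting error alone the terms of B73 (-0.67, 95% interval -0.9 to -0.43) and id1 (0.81, interval 0.69 to 0.92) were clear of 0. Both id1 and id4 had a larger leaf excess than B73 and 9d9a, and a term for 1 line against the other 3 does not test such a split.

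Medians of the term over intervals of 5 Mb stayed close to 0. In 412 intervals of 5 Mb per line, the median term lay within 0.2 log2 units of 0 in all 412 intervals of B73, id1 and id4 and in 411 of 9d9a. A median of at least 0.1 in size was reached in 33 intervals in B73, 9 in id1, 24 in id4 and 12 in 9d9a. The highest was 0.2 in 9d9a on chromosome 4 at 210 to 215 Mb, over 50 windows with quartiles of -0.03 and 0.33. The lowest was -0.18 in id4 on chromosome 6 at 10 to 15 Mb, over 48 windows with quartiles of -0.37 and 0.01. In B73 the lowest median was -0.17, on chromosome 5 at 110 to 115 Mb. Its highest was 0.16, on chromosome 3 at 90 to 95 Mb. In id1 the lowest was -0.11, on chromosome 3 at 115 to 120 Mb. Its highest was 0.15, on chromosome 8 at 85 to 90 Mb. The highest in id4 was 0.19, on chromosome 3 at 75 to 80 Mb, and the lowest in 9d9a was -0.11, on chromosome 7 at 55 to 60 Mb. Such medians do not show a few windows apart that lie near each other. On chromosome 1, id1 was apart and lower at 81.7, 82.5 and 83.1 Mb, with gaps of -1.43, -1.88 and -1.21. Its other windows apart on that chromosome, at 29.2, 56.1 and 60.9 Mb, were higher. Whether windows apart cluster was not tested.

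The contrast of leaf with root was narrower in id4 than in the other lines across tissue-specific windows. Windows were taken where the other 3 lines agreed in sign and their mean difference was at least 1 log2 unit, a choice that uses the values of those lines, so that the slopes are a description. The slope of the line's own difference on that mean was 0.73 in id4 over 429 windows. It was 1.02 in B73 over 325 windows, 0.93 in id1 over 335 and 1.03 in 9d9a over 313. Correlations over these windows, which share libraries, were 0.94 to 0.96. When the mean difference was at least 2, the slope in id4 was 0.79 and those of the other lines were 0.93 to 1.1. Without the window at 183.5 Mb of chromosome 5 it was 0.74 in id4.

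The narrowing in id4 was seen in both directions. Among 224 windows higher in leaf in the other 3 lines, the id4 difference was smaller than their mean in 203 (90.6%), and its median share of it was 0.667. Among 205 windows higher in root, it was smaller in 175 (85.4%), with a median share of 0.771. In the other lines the median share was 0.938 to 1.07 in leaf-rich windows and 0.97 to 1.06 in root-rich windows. Most of the deviation lay in the id4 root library, which was 0.3 log2 units above the other roots in leaf-rich windows and 0.21 below them in root-rich windows (medians). The id4 leaf library deviated by -0.16 and 0.06. The window called in id4 and the abundant one at 183.5 Mb of chromosome 5 both had this form, with a smaller tissue difference in id4. Both are among the windows of the slope and were named for the departure of id4, so they are not separate instances of the narrowing.

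**Figure D5:**
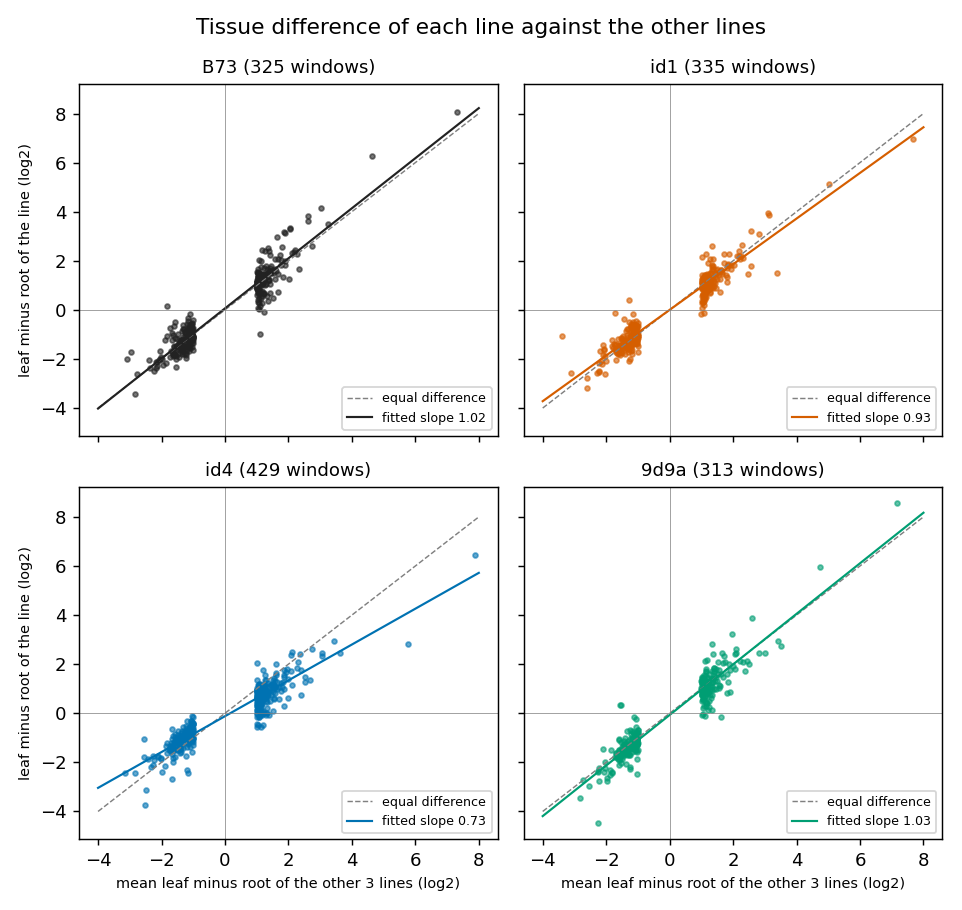
Leaf minus root (log2) of each line against the mean of the other 3 lines, 1 point per window, for windows where the other 3 agree in sign and differ at least 2-fold on average. The solid line is the least-squares fit and the dashed line marks equal differences; the id4 fit, with a slope of 0.73, is flatter than the dashed line, and the other fits have slopes of 0.93 to 1.03.

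In other windows the tissue difference set the lines apart in pairs. This description was added after the root libraries were seen to pair. In 35 windows (0.186%) B73 and id1 both lay at least 1 log2 unit beyond both id4 and 9d9a, with a counting interval clear of 0. For the other pairings the count was 1 (0.00532%) for B73 with id4 and 8 (0.0425%) for B73 with 9d9a. In 34 of the 35 windows the leaf to root difference was higher in B73 and id1. In 35 of 35 the larger deviation lay in root, as it did in 64.9% of all windows for this pairing. The pairing was taken from the root libraries, so a larger root deviation in the 35 windows is not a separate result. Of these windows 29 held at least 100 reads per library. With a gap of 0.5 in place of 1, the count was 252 (1.34%), of which 233 had the larger deviation in root.

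In the 5 windows with the largest such gaps, both roots of one pair lay above both roots of the other. In the one starting at 46.8 Mb of chromosome 1, leaf held 1744 CPM in B73, 2008 in id1, 1313 in id4 and 1697 in 9d9a. Root held 1565 and 2015 CPM in B73 and id1 but 8138 and 12381 in id4 and 9d9a. Root thus exceeded leaf in id4 and 9d9a by 2.63 and 2.87 log2 units, while B73 and id1 differed by 0.16 and -0.01 (leaf minus root). In the window starting at 71.5 Mb of chromosome 6, leaf held 81.5 to 98.4 CPM in the 4 lines. Root there held 16.6 CPM in B73 and 16.9 in id1, against 81.4 in id4 and 98.8 in 9d9a.

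At 4.7 Mb of chromosome 8 the pairs parted in both tissues and in opposite directions. Leaf there held 883 CPM in B73 and 915 in id1, against 496 in id4 and 546 in 9d9a, and root held 236 and 272 CPM, against 709 and 649. At 134.2 Mb of chromosome 9, leaf held 2617 to 3242 CPM in the 4 lines. Root in that window held 742 and 830 CPM in B73 and id1 and 2736 and 4024 in id4 and 9d9a. At 131.2 Mb the leaf levels were 12.9 CPM in B73, 22.1 in id1, 14.6 in id4 and 8.71 in 9d9a, and the root levels 51.0, 46.4, 196 and 197 CPM.

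The most abundant window of the 8 libraries, starting at 96.1 Mb of chromosome 6, took 1.69% to 2.61% of the reads in leaf and 0.542% to 1.66% in root. Leaf exceeded root by 1.63 log2 units in B73, 1.15 in id1, 0.96 in id4 and 0.25 in 9d9a. Its terms were 0.85, 0.2, -0.05 and -1.0, and none was called (edgeR, adjusted p of 0.884 to 1.0). None of the 10 most abundant windows was called in any line by edgeR over the 8 libraries. Calls made up 0.00495% to 0.0445% of all windows tested in a line, and at such shares a set of 10 would hold none. The 10 windows include the id4 window at 183.5 Mb of chromosome 5, which DESeq2 and limma-voom called.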

How the data were processed

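Small RNA reads were counted by the authors in consecutive windows of 100 kb on the 10 chromosomes. The deposited values are whole-number read counts, per the file headers and values, with no further normalisation. Per the submitters' processing notes, Bowtie was used. No source used here states its version, the genome build, which read lengths were kept or how reads matching several places were counted. A count can depend on each of these and on how closely a line matches the reference. Unlisted windows were taken as 0.

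Groups came from sample titles. The 8 libraries were fitted with edgeR 4.0.16 under R 4.3.3 (robust quasi-likelihood fit, TMM scaling, edgeR's default low-count filter). The model held line, tissue and 1 term for the leaf library of the line tested. SEs were derived from the F statistic. Adjustment was by Benjamini-Hochberg over 20215 windows in each line, with a threshold of 0.05. The common biological coefficient of variation was 0.0801 to 0.0895. Descriptive terms used log2 CPM from counts plus 0.5. Counting intervals (95%, Poisson) reflect counting error alone, as no molecular identifiers mark separate molecules.

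The windows named were, for each line, the called windows that were also apart, up to 4 per direction, completed by the windows apart with the largest gap. The remaining called windows, the window taken to lie next to p1 and the farthest 5 Mb intervals were added to them, and 39 windows were named in all, of which those with few reads are described by counts. The B73 calls that were not apart, the paired windows and the most abundant windows were described after their values were seen. Members, lists and tests were chosen with earlier results of these data known.

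Alternatives were DESeq2 1.42.0, limma-voom (limma 3.58.1), other scalings and filters, leaving out each line, and 2 added after seeing the data (thinning B73 leaf, slopes without 1 window). The test was run on simulated counts before use. The 714 and 714H libraries entered no test.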

Additional observations from a re-analysis of the deposited data

Results flagged for a closer look

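A tested difference between the leaf to root effect of 1 line and that of the other lines was found in 14 windows, all by edgeR's line-by-tissue term at an adjusted p under 0.05. No group had more than 1 library, so no library could be compared with others of its group.

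In B73 the log2 terms on chromosome 1 were 1.56 at 51.7 Mb, 1.22 at 214.5 Mb, 1.08 at 65.6 Mb and 1.04 at 29.7 Mb. On chromosome 4 they were 1.11 at 136.0 Mb, 1.09 at 185.0 Mb and -1.05 at 153.7 Mb. On chromosome 6 they were 1.22 at 20.4 Mb and 0.93 at 89.8 Mb. In id1 the chromosome 9 window at 44.1 Mb had a term of -1.58 and the chromosome 2 window at 224.1 Mb one of -1.30. In id4 the chromosome 3 window at 7.7 Mb had a term of 1.5. In 9d9a the terms were -3.11 for the chromosome 5 window at 141.7 Mb and 2.04 for the chromosome 7 window at 19.6 Mb. Of these, the 9d9a window on chromosome 7 was called under each of the 12 other settings, and each of the other 13 lost its call under at least 1 of them.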

How the results depend on the processing

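Counts of called windows moved with the setting, and the cause was not tested where a value below does not show it. From 9 in B73 the count was 3 with DESeq2, 2 when adjusted over the 4 lines together, 3 with B73 leaf thinned, and 0 with library totals, limma-voom, at least 100 reads or no robust shrinkage. From 2 in id1 it was 0 with limma-voom and with no robust shrinkage. From 1 in id4 it was 2 with DESeq2 and 0 with at least 100 reads or no robust shrinkage, and limma-voom called 1 other window. From 2 in 9d9a it was 1 with limma-voom, at least 100 reads or no robust shrinkage.

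Leaving out each line gave 0 to 287 windows in B73 (0 without 9d9a, 18 without id4, 287 without id1), 0 to 140 in id1 (0 without 9d9a, 9 without id4, 140 without B73), 0 to 527 in id4 (0 without id1, 1 without B73, 527 without 9d9a) and 1 to 649 in 9d9a (1 without id1, 4 without B73, 649 without id4). These fits have 1 residual degree of freedom. The highest counts came when the line left out was the one whose root library paired with that of the line tested.

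Windows apart numbered 5, 9, 4 and 6 in B73, id1, id4 and 9d9a on the log2(CPM + 1) scale, 5, 10, 4 and 5 with at least 100 reads, 0, 0, 1 and 1 with a gap of 2, and 6, 8, 4 and 5 with a wider counting interval. In 2 Mb intervals the lowest and highest medians were -0.33 and 0.25 in B73, -0.22 and 0.28 in id1, -0.38 and 0.3 in id4 and -0.25 and 0.31 in 9d9a. With library totals the 5 Mb medians were -0.16 and 0.1 in id1 and -0.05 and 0.27 in 9d9a. Paired windows numbered 252 with a gap of 0.5. Slopes moved little under the settings tried, and no term of a named window changed sign.

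Depth limits windows under 50 reads, where counting error nearly fills the spread. No paired analysis was possible because each line and tissue had 1 library, and line was already a term of the model.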
